A study of Mus musculus with 8 samples.

Results

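Calpain protease genes and the gene of their inhibitor were followed in mouse tibialis anterior, a muscle of the shin, with and without the transcription factor Prep1. The members were the calpain genes Capn1, Capn2, Capn3, Capn5, Capn6, Capn7 and Capn10, the small subunit gene Capns1 and the inhibitor gene Cast. These are 9 of the 27398 gene names on the array, with 15 of its 41174 non-control probes. Probes were taken by the gene name in the array files, and the family was chosen by the Capn2 signal, which stood out between the genotypes. The genotype contrast was therefore used in the choice, and its values below are a description with no test.

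Calpains are cysteine proteases of the cytosol that are switched on by calcium and cut their substrates at a few sites instead of degrading them. The catalytic subunits encoded by Capn1 (calpain 1, µ-calpain) and Capn2 (calpain 2, m-calpain) each pair with the shared small subunit encoded by Capns1, and calpastatin, the product of Cast, is their dedicated protein inhibitor. Capn3 encodes the calpain of skeletal muscle, which binds titin in the sarcomere and whose loss in people causes a limb-girdle muscular dystrophy.

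RNA came from 8 male C57BL/6 mice aged 8 weeks, 1 single-colour Agilent array per mouse. Prep1f/+ mice (n = 4), the controls, carried a floxed Prep1 allele. In Prep1deltaSM mice (n = 4) Prep1 was ablated in skeletal muscle. What drives the deletion is not given in the sources used here. The label Prep1f/+ and the series' own wording, Prep1 flox mice, leave the exact control genotype unsettled. Signals are given as log2 intensity relative to the 75th percentile of the array, so 0 is the signal of a probe at that percentile and a difference of 1 is a doubling. Since probes differ in how well they bind, the level of one probe was not set against that of another.

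Each array had 23787 to 27123 of its 43379 non-control spots well above background, the scanner software's mark for a spot clearly brighter than its surroundings, and no spot was saturated. All 8 muscle fibre markers examined (Ckm, Acta1, Myh4, Myh1, Tnnt3, Pvalb, Actn3 and Mylpf) were well above background on all 8 arrays, at intensities of 67900 to 458000. Pknox1, the gene of Prep1, lay between -0.51 and -0.09 in Prep1f/+ and between -2.28 and -1.84 in Prep1deltaSM, and so followed the labels in every mouse. Prep1f/+ replicates 1 and 4 stood apart on the first principal component of all genes, at -23.46 and -40.98 against -3.39 to 17.21 for the other arrays. Member differences that move by over 1.5 times without them are given with and without. For listed genes, markers and neighbouring probes no values without them are given.

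The probes that measured Capns1 and the muscle calpain Capn3 are shown in full because each spans more genome than its 60 bases, as a probe across a splice junction does. The Capns1 probe A_51_P399538 covers 278 bases at chr7:30977245-30977522 on the reverse strand, and the Capn3 probe A_51_P423859 covers 378 bases at chr2:120329836-120330213 on the forward strand, in mm9, the build named in the array files.
Capns1 probe: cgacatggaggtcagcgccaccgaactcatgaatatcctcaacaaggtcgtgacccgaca
Capn3 probe: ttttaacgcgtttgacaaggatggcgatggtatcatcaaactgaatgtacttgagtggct
The Capn2 probe A_51_P448109 lies at chr1:184398247-184398305 on the reverse strand, and its first 30 bases are shown because this 1 probe carried the difference for which the family was picked.
Capn2 probe: accaatgactacacttagacactttgtatc
Its place among the exons and untranslated regions was not settled here.

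A second probe that the array files assign to Capn3, A_52_P300971, matters to the results because it gave the opposite sign. It was designed on the cDNA AK040360, which the files describe as inferred to be a transcript of a neighbouring zinc finger gene, Zfp106, and it lies 3.24 kb downstream of the first Capn3 probe at chr2:120333079-120333138 on the forward strand, the strand of Capn3. Zfp106 follows Capn3 in the RefSeq gene order of GRCm38.p6. Its probe A_52_P644354, at chr2:120333061-120333120 on the reverse strand, is the exact reverse complement of the Capn3 probe over 42 bases. The first 30 of these are shown for the Capn3 probe, followed by the 30 bases of the Zfp106 probe that lie opposite them.
Capn3 second probe: tgctaagtaaacgtatgtgaacttaagcaa
Zfp106 probe: ttgcttaagttcacatacgtttacttagca

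Of the 15 probes, 14 were well above background on all 8 arrays. The exception was the second Capn6 probe (A_52_P336013), which was well above background on none of them, and its values are not used. Each gene was represented by its brightest probe, and all 9 genes passed the filter on dim probes, which asks for signal well above background on at least 4 arrays.

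Across the 9 genes, 5 had a higher mean in Prep1deltaSM and 4 a lower one, with a median log2 difference of 0.15 against -0.07 for the 16024 genes tested. Capn2 and Capns1, catalytic and regulatory subunit of the same enzyme, were the members whose Prep1deltaSM values all lay above all Prep1f/+ values, and no member lay wholly below. Such a gap in either direction was seen for 10.5% of all genes, in the higher direction for 3.72% and in the lower direction for 6.73%. At an adjusted p of 0.05 by limma (Benjamini-Hochberg over all genes) 0 of the 9 members were called, where 0.00624% of all genes were, namely Pknox1 alone. At an unadjusted p of 0.05 by limma, 3 members were called, Capn2 and Capns1 higher and Capn5 lower, where 15.9% of all genes were. Because the contrast picked the family, nothing is read from these counts.

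**Figure D1:**
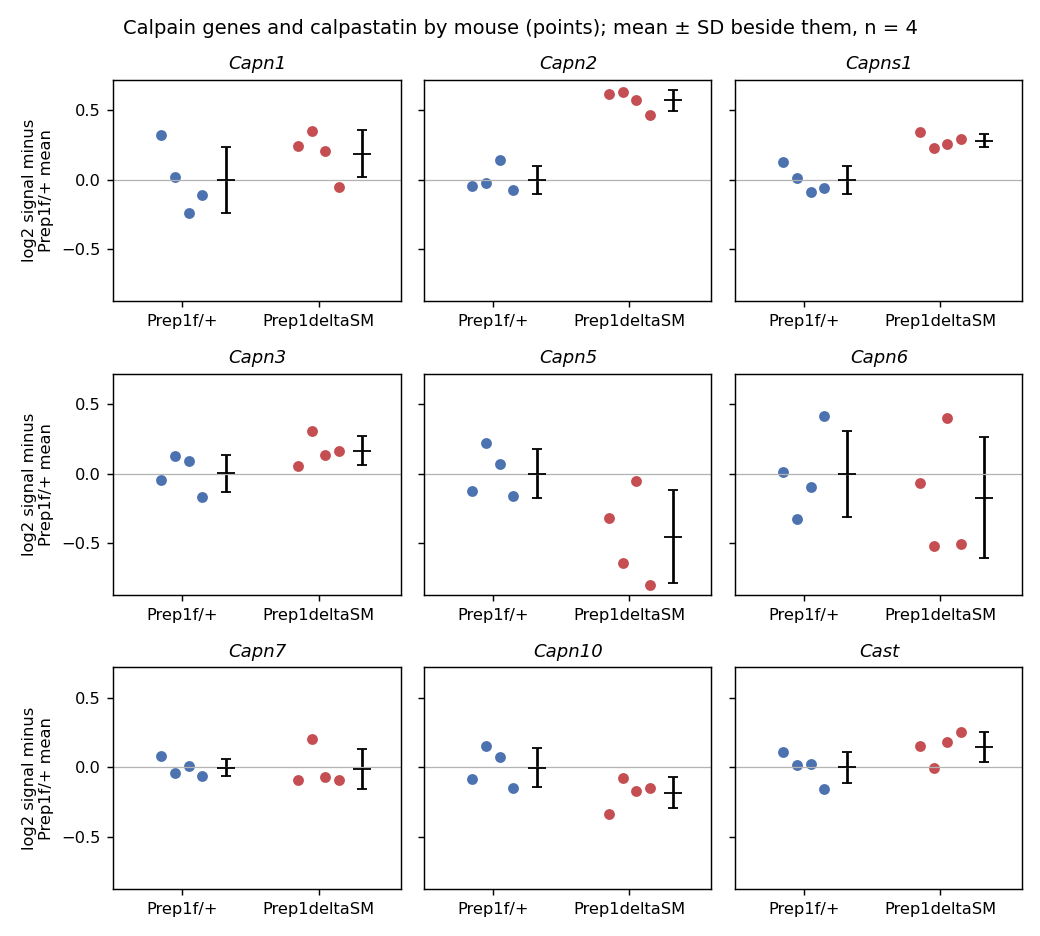
Log2 signal of the 9 genes in each mouse, minus the gene's mean over the Prep1f/+ mice, with Prep1f/+ in blue and Prep1deltaSM in red and the mean ± SD (n = 4) beside the points. Capn2 and Capns1 are the panels without overlap between the groups, and Capn5 and Capn6 show the widest spread within Prep1deltaSM.

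Capn2, the catalytic subunit of m-calpain, was 1.49-fold higher in Prep1deltaSM muscle. The log2 signal was 0.22, 0.24, 0.41 and 0.19 in the Prep1f/+ mice and 0.88, 0.90, 0.84 and 0.73 in the Prep1deltaSM mice. The groups were separated by a gap of 0.32 between the highest control and the lowest mutant, larger than the spread within either group (SD 0.10 and 0.08, n = 4 each). The mean difference was 0.57 ± 0.09 (SE), and 1.86% of all genes had a larger rise. Before scaling between arrays, the background-subtracted intensity was 159 to 262 in Prep1f/+ and 273 to 367 in Prep1deltaSM, also without overlap. These unscaled values include array brightness, which leaned the same way. The array's 75th percentile was 139 to 197 in Prep1f/+ and 165 to 197 in Prep1deltaSM. In the authors' deposited table the same probe stood at 203 to 231 and at 295 to 331. Each of the 4 slides carried 1 array of each genotype, and within slides the Capn2 difference was 0.64, 0.49, 0.51 and 0.64. No other probe of Capn2 is among the members, so the difference rests on a single probe.

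Capns1, the small subunit that stabilises both conventional calpains, was 1.21-fold higher. It read 1.55, 1.43, 1.33 and 1.36 in the Prep1f/+ mice and 1.76, 1.65, 1.68 and 1.71 in the Prep1deltaSM mice. All mutants lay above all controls, but the gap was 0.10, about the size of the spread in Prep1f/+ (SD 0.09, n = 4) and larger than that in Prep1deltaSM (SD 0.05, n = 4). The mean difference was 0.28 ± 0.08 (SE), and it was positive on all 4 slides, at 0.33, 0.32, 0.16 and 0.31. Before scaling the intensities were 358 to 496 against 539 to 643, which again includes the difference in array brightness.

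Capn1, the catalytic subunit of µ-calpain and the other partner of Capns1, did not show the same separation. Its values were 0.46, 0.16, -0.10 and 0.03 in Prep1f/+ and 0.38, 0.49, 0.35 and 0.09 in Prep1deltaSM. The groups overlapped widely, and the highest control, replicate 1, lay above 3 of the 4 mutants. The mean difference of 0.19 ± 0.14 (SE) was below the SD of the control mice (0.24, n = 4), which replicate 1 widened, and its sign turned on slide 3, at -0.37. It was 0.29 without Prep1f/+ replicate 1, 0.29 without replicates 1 and 4, and 0.11 without replicate 3. Whether the Capn1 and Capn2 differences differ from each other was not tested.

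The main Capn3 probe, on the spliced message of the muscle calpain, read 3.04, 3.21, 3.18 and 2.92 in Prep1f/+ and 3.14, 3.39, 3.22 and 3.25 in Prep1deltaSM. The lowest mutant lay within the control range, and the mean difference was 0.16 ± 0.10 (SE). Without Prep1f/+ replicates 1 and 4, which include the lowest controls, it was 0.06, so most of the difference rested on those mice.

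The second Capn3 probe, downstream and on the same strand, was lower in every Prep1deltaSM mouse. It read 0.06, -0.34, -0.55 and 0.26 in Prep1f/+ and -1.28, -1.08, -1.18 and -0.73 in Prep1deltaSM, with a gap of 0.18 between the groups. The mean difference was -0.92 ± 0.20 (SE), the largest in size among the 14 detected member probes. A gap in this direction was found for 5.35% of the 24498 probes that passed the filter. Within slides the difference was -0.94, -0.54, -0.79 and -1.43. It was -0.62 without Prep1f/+ replicates 1 and 4, the highest controls, and -0.56 with normexp background correction and quantile normalization. The normexp setting adds an offset of 50 to each intensity, which narrows log2 differences, most for dim probes. Before scaling this probe read 124 to 172 in Prep1f/+ and 78.1 to 99.8 in Prep1deltaSM. When both Capn3 probes were averaged the gene's difference became -0.38, against 0.16 for the brighter probe alone.

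Probes of the neighbouring genes gave smaller differences. The Zfp106 probe on the opposite strand read 4.62 to 4.92 in Prep1f/+ and 4.87 to 5.05 in Prep1deltaSM, a difference of 0.19 ± 0.09 (SE) with overlapping groups. The other 3 detected Zfp106 probes, 5.74 to 29.5 kb from the main Capn3 probe, differed by 0.00, 0.22 and 0.19. The 3 probes of Ganc, the gene before Capn3, differed by 0.11, 0.30 and -0.12. The probe of 4931402G19Rik, upstream of Capn3 and well above background on 4 of 8 arrays, differed by -0.53 ± 0.28 (SE) with overlapping groups. Which RNA the second Capn3 probe measures was not tested, and its value is therefore given for the probe and not for Capn3.

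**Figure D2:**
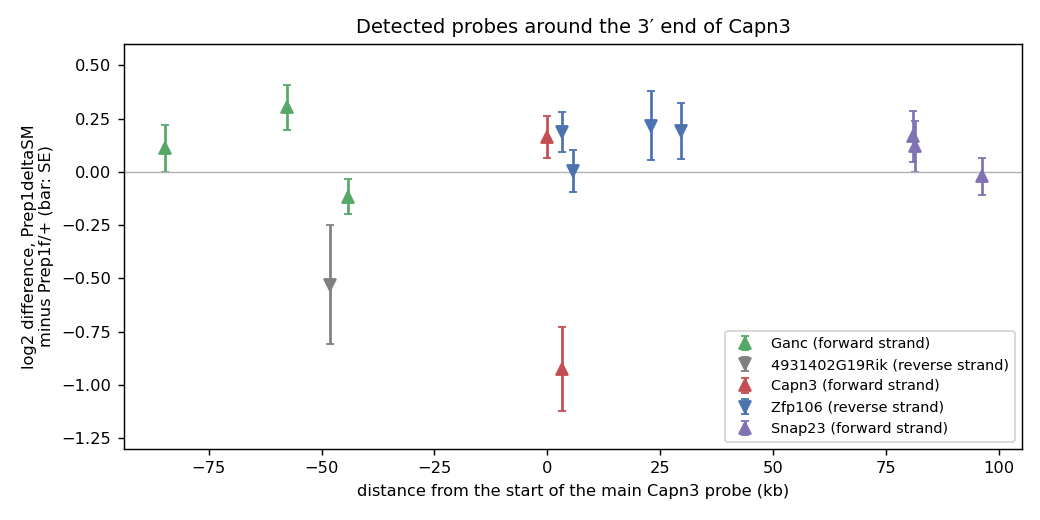
Log2 difference (Prep1deltaSM minus Prep1f/+, bars SE) of each detected probe within 100 kb of the main Capn3 probe, against distance from that probe in kb, with triangles up for the forward and down for the reverse strand. The second Capn3 probe, at 3.24 kb and -0.92, is the lowest value, while the Zfp106 probes beside it lie between 0.00 and 0.22.

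Among the calpains without the classical domain layout, Capn5 was lower in Prep1deltaSM in 3 of 4 mice. Its values were -1.41, -1.07, -1.22 and -1.45 in Prep1f/+ and -1.61, -1.93, -1.34 and -2.09 in Prep1deltaSM. The mean difference was -0.45 ± 0.17 (SE), but mutant replicate 3 lay among the controls, and on slide 4 the difference was 0.11. With normexp background correction and quantile normalization the difference was -0.19. The intensities before scaling were 38.8 to 84.6, where the normexp offset of 50 narrows a log2 difference.

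Capn6, whose protein lacks the catalytic cysteine and binds microtubules, read -1.35, -1.69, -1.46 and -0.95 in Prep1f/+ and -1.43, -1.88, -0.96 and -1.87 in Prep1deltaSM. The ranges overlapped almost fully, and the mean difference of -0.17 ± 0.24 (SE) was smaller than the spread within either group (SD 0.31 and 0.44, n = 4 each). Its sign turned to 0.04 without Prep1f/+ replicates 1 and 4.

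The lowest Capn5 and Capn6 values fell in Prep1deltaSM replicates 2 and 4, which also had the lowest connective tissue markers. The mean of 10 fibroblast and matrix markers, each centred on its own mean, was -0.31 and -0.65 in Prep1deltaSM replicates 2 and 4, where Capn5 and Capn6 were lowest. It was -0.06 and 0.34 in Prep1deltaSM replicates 1 and 3 and ran from -0.23 to 0.32 in Prep1f/+. The controls did not show the same match. Prep1f/+ replicate 2, with the highest control marker mean (0.32), had the highest control Capn5 (-1.07) but the lowest control Capn6 (-1.69). Prep1f/+ replicate 4, at a marker mean of 0.27, had the lowest control Capn5 (-1.45). Of these markers 8 had a lower mean in Prep1deltaSM and 2 a higher one, with their summed linear level at 401 to 683 in Prep1f/+ and 305 to 705 in Prep1deltaSM, in units of the array's 75th percentile. All 7 tendon markers, all 9 macrophage and leukocyte markers tested and all 6 adipocyte markers tested also had lower means in Prep1deltaSM. These lists too were lowest in Prep1deltaSM replicates 2 and 4, at -0.66 and -1.04 for tendon and -2.21 and -1.66 for adipocyte markers, against 0.15 and 0.35 and against 1.16 and 0.94 in replicates 1 and 3, and the groups overlapped. Endothelial, smooth muscle and Schwann cell markers went both ways, with 3, 3 and 4 of 7 higher, as did satellite cell markers, with 2 of 5 higher. The summed linear level, which leans on the brightest markers, did not overlap for satellite cell markers, at 8.32 to 8.85 in Prep1f/+ and 5.23 to 6.86 in Prep1deltaSM. Nor did it for smooth muscle and pericyte markers, at 202 to 248 in Prep1f/+ and 258 to 285 in Prep1deltaSM. For every other list it overlapped. The part of these markers in the Capn5 and Capn6 values was not tested, and in whole muscle fewer cells of a type and less RNA per cell cannot be told apart.

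**Figure D3:**
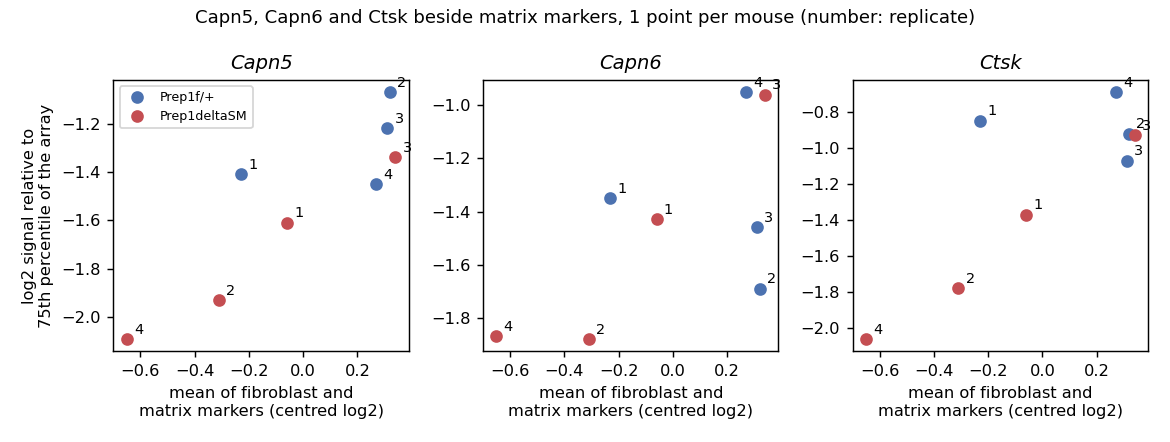
Log2 signal of Capn5, Capn6 and the cathepsin gene Ctsk in each mouse against the mean of the 10 fibroblast and matrix markers (centred log2), with Prep1f/+ in blue, Prep1deltaSM in red and the replicate number beside each point. Prep1deltaSM replicates 2 and 4 lie lowest on the marker axis and lowest for Capn5 and Ctsk.

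Capn7 and Capn10 overlapped between the groups. For Capn7, a calpain of the endosomal sorting pathway, the brighter probe differed by -0.01 ± 0.09 (SE), with controls at 2.52 to 2.66 and mutants at 2.49 to 2.78. Without Prep1f/+ replicates 1 and 4 this difference was -6.6e-04. The other Capn7 probe differed by 0.10 ± 0.10 (SE), so the sign depended on the probe. Capn10, known from human genetic studies of type 2 diabetes, read 0.53, 0.77, 0.69 and 0.47 in Prep1f/+ and 0.28, 0.54, 0.45 and 0.47 in Prep1deltaSM. It was lower on all 4 slides, at -0.49, -0.15, -0.07 and -0.02, with overlapping groups. The mean difference of -0.18 ± 0.10 (SE) was larger than the SD of either group (0.14 and 0.11, n = 4 each), and it was -0.30 without Prep1f/+ replicates 1 and 4.

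Cast, the inhibitor, was measured by 4 probes along its transcripts and showed no separation with any of them. The brightest probe read 2.29, 2.19, 2.20 and 2.02 in Prep1f/+ and 2.33, 2.17, 2.36 and 2.43 in Prep1deltaSM, a difference of 0.15 ± 0.10 (SE), or 0.096 without Prep1f/+ replicate 4. In the authors' deposited table this probe did not match the scanner intensities, at 432 to 486 in Prep1f/+ and 407 to 508 in Prep1deltaSM. The other probes differed by 0.06 ± 0.10, -0.03 ± 0.10 and 0.04 ± 0.10 (SE). The probe at -0.03, A_52_P548913, spans 7695 bases at chr13:74884071-74891765 on the reverse strand.

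**Figure D4:**
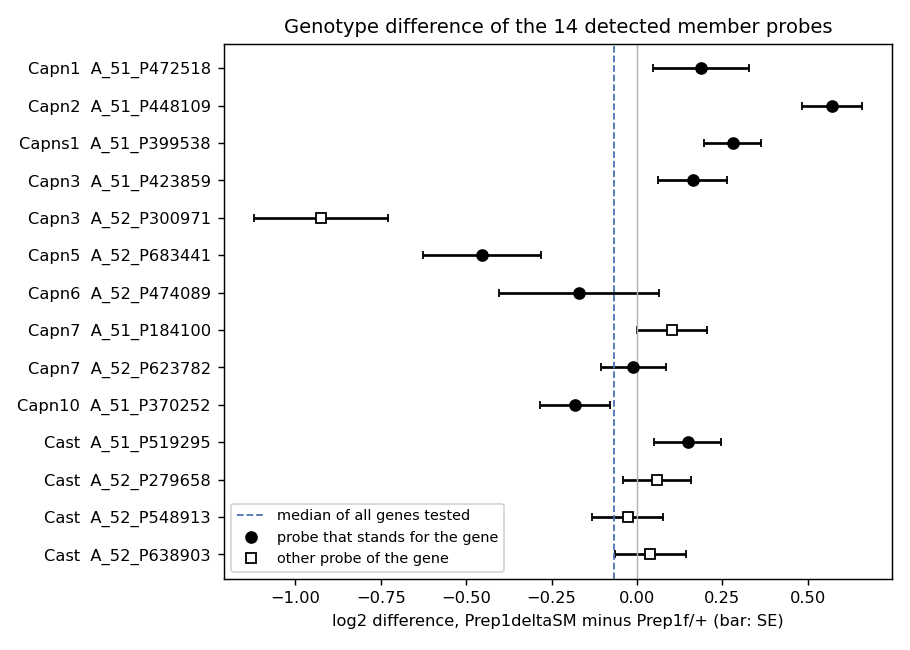
Log2 difference (Prep1deltaSM minus Prep1f/+) of the 14 member probes above background, with SE from the fit of every probe as its own row; filled circles are the probes that stand for their gene, open squares are other probes of the same gene, and the dashed line is the median of all genes tested (-0.07). Capn2 lies farthest to the right at 0.57 and the second Capn3 probe farthest to the left at -0.92, while the 4 Cast probes lie between -0.03 and 0.15.

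Other genes of the family were mostly dark in this muscle. Of the 6 other calpain genes found on the array, Capn8, Capn9, Capn11 and the second small subunit gene Capns2 were well above background on none of the 8 arrays. Capn12 and Solh (Capn15 in current naming) passed the filter, with differences of -0.32 ± 0.33 and -0.07 ± 0.16 (SE) and overlapping groups. Capn12 was highest in Prep1f/+ replicate 1, at -2.50 against -4.09 to -3.40 in the other controls.

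Genes of known calpain substrates, anchors and partners had differences in both directions. Of 32 listed, 30 were tested, 12 with a higher and 18 with a lower mean in Prep1deltaSM, and the median difference was -0.05 against -0.07 for all genes. By limma 0 passed an adjusted p of 0.05, and 2 had an unadjusted p under 0.05, Vcl higher and Nfkbia lower, where 15.9% of all genes did. The groups did not overlap for 3 of the 30, Vcl, Actn3 and Anxa6, all higher, where 10.5% of all genes did not overlap in either direction and 3.72% were higher. For Anxa6 the groups nearly touched, with the highest control and the lowest mutant both at 1.34 after rounding, and its other probe differed by -0.16. Vcl, the adhesion protein vinculin, read 1.48, 1.45, 1.49 and 1.72 in Prep1f/+ and 2.19, 1.79, 1.94 and 1.94 in Prep1deltaSM. Its groups did not overlap and the difference was 0.43 ± 0.11 (SE), but its other probe differed by -0.24. Nfkbia, the inhibitor of NF-κB, differed by -0.35 ± 0.14 (SE) and Ankrd23, a titin-binding ankyrin repeat protein, by -0.29 ± 0.13, both with overlapping groups. Titin itself (Ttn), the anchor of the muscle calpain, differed by 0.04 ± 0.17 with its brightest probe and by -0.16 to 0.85 over its 9 probes, and dysferlin (Dysf), a membrane repair protein, by 0.13 ± 0.09.

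Cathepsins and caspases, the other intracellular proteases listed, mostly had lower means in Prep1deltaSM. The lower mean was found for 12 of the 14 tested, the higher one for 2, and the median difference was -0.17, where that of all genes was -0.07. By limma 0 passed an adjusted p of 0.05 and 1 of 14 had an unadjusted p under 0.05, where 15.9% of all genes did. That gene was Ctsk, the collagen-degrading cathepsin K, which read -0.85, -0.92, -1.07 and -0.69 in Prep1f/+ and -1.37, -1.78, -0.93 and -2.06 in Prep1deltaSM. The difference was -0.66 ± 0.23 (SE), and the lowest mice were again Prep1deltaSM replicates 2 and 4, the mice with the lowest fibroblast and matrix markers. Ctss, a cathepsin of immune cells, differed by -0.60 ± 0.28 and Ctsd, a main lysosomal protease, by -0.19 ± 0.10, with the other Ctsd probe at 0.26.

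The genes whose profile over the 8 arrays was most like that of Capn2, out of 16016 with a value on every array, were Bax (Pearson r = 0.979, Spearman rho = 0.952), Zbtb26 (r = 0.975), Kbtbd7 (r = 0.972), the cDNA AK045163 (r = 0.969) and Herc2 (r = 0.967). Bax, a gene of mitochondrial apoptosis, ran from -0.85 to -0.76 in Prep1f/+ and from -0.47 to -0.39 in Prep1deltaSM. All 5 were without overlap between the groups, as Capn2 was, and they were picked for this likeness, so the coefficients carry no test. Those most like the main Capn3 probe were Amy2a5 (r = 0.980), Slc20a2 (r = 0.969), Ttc3 (r = 0.958), Tsg101 (r = 0.957) and Tia1 (r = 0.957), and in all of these the groups overlapped.

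Once each group's mean was removed, Capn2 and Capns1 no longer ran together from mouse to mouse. Over all 8 arrays their r was 0.831, and within groups it was -0.41, a description over 8 mice that share the scaling of their arrays.

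Upstream sequence is shown for Capn2 and Capns1, the members without overlap, as the 250 bases before the transcription start in RefSeq (GRCm38.p6), with CCAAT on either strand in capitals. The Capn2 window is chr1:182517611-182517860 and the Capns1 window chr7:30195154-30195403, both on the reverse strand.
Capn2 upstream: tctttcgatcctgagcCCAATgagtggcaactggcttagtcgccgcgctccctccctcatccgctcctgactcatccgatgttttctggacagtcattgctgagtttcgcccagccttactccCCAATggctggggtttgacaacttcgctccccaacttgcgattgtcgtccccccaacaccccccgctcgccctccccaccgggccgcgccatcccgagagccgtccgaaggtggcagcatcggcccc
Capns1 upstream: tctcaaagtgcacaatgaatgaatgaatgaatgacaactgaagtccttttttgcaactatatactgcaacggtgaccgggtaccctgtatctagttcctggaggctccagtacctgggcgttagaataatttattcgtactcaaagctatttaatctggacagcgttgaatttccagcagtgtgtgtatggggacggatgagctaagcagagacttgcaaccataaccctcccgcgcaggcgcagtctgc
The Capn2 window holds CCAAT at 2 places and the Capns1 window at none, where 33.8% of the 32851 windows in the table hold it on either strand. GGGCGG, which 32.7% of windows hold on either strand, is in neither. TGACAG, the core of the sequence that Prep1 and MEIS proteins bind, is in neither window on either strand. Among the 13 windows of the 8 members in the table, 1 holds TGACAG, a window of Cast. Over all windows the share with TGACAG is 15.9%. CCAAT is in 8 of the 13, from Capn1, Capn2, Capn6, Capn7, Capn10 and Cast. GGGCGG is in 5 of the 13, from Capn1, Capn6, Capn7 and Cast. These letters say only what the windows hold.

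**Figure D5:**
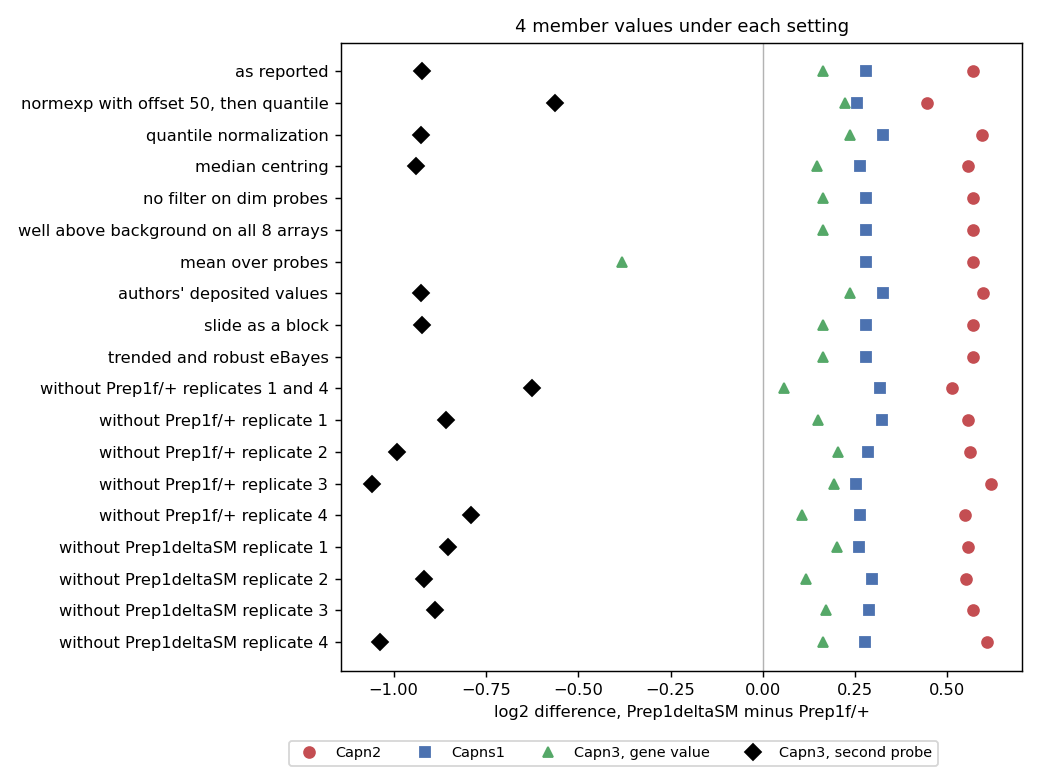
Log2 difference (Prep1deltaSM minus Prep1f/+) of Capn2, Capns1, the Capn3 gene value and the second Capn3 probe, 1 row per setting. Rows are the reported setting and the alternatives, apart from every probe as its own row. The second Capn3 probe has no point for the other filters, the mean over probes or trended robust eBayes, where it was not fitted. Capn2 stays between 0.45 and 0.62 and Capns1 between 0.25 and 0.33. The second Capn3 probe stays below 0 in the settings where it was fitted, and the Capn3 gene value turns to -0.38 where its probes are averaged.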

How the data were processed

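The authors deposited 1 Feature Extraction file per array, and per the file headers the intensity of each spot (gProcessedSignal, version 10.5.1.1, protocol GE1_107_Sep09) is background-subtracted and detrended, with no normalization between arrays. Version 9.1 of the same software stands in the submitters' processing notes, and the conflict was not resolved. The authors' deposited table of processed intensity values has an unstated scale and centring. It served as an alternative through the 26233 rows that matched quantile-normalized scanner intensities to 0.1 log2. The brightest probes of Cast and Capn7 did not match. This alternative therefore used another Cast probe, with a difference of 0.08, and gave no value for Capn7.

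Log2 intensity was taken relative to the array's 75th percentile over non-control spots, non-uniform spots (0 to 11 on an array) were dropped, and replicate spots averaged. Probes well above background on at least 4 arrays were kept (24498), and a gene was its brightest kept probe (16024 genes). The genotypes were compared over all 8 arrays without covariates by limma 3.58.1 (lmFit, eBayes; R 4.3.3), Benjamini-Hochberg adjusted over all genes. The fit was tested on simulated data. Replicate numbers follow the order of the samples and pair nothing. The labels call the samples mice, so the replicates are animals.

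The members and lists were chosen with earlier results of these data known. The named genes were the 9 members, Pknox1, the 5 genes most like Capn2 and Capn3 by Pearson r, and the 3 genes of each list with the smallest p. Ttn, Dysf and the probes around Capn3 were named in addition, after their values were seen.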

Additional observations from a re-analysis of the deposited data

Results flagged for a closer look

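In 30 groups of 4 values (14 member probes and Pknox1, in both genotypes) 1 mouse lay far from its group (gap over range, Dixon's criterion). About 1.5 such cases come by chance, 1 in 20 groups. This was Prep1deltaSM replicate 2 for the brighter Capn7 probe, at 2.78 against 2.49 to 2.51 in the other Prep1deltaSM mice (ratio 0.923). In the other Capn7 probe that mouse read 2.19 against 2.03 to 2.17.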

How the results depend on the processing

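The 8 arrays limit precision, and the second Capn6 probe was too dim to use. The Capn2 difference was 0.55 to 0.62 with 1 array left out and 0.45 after normexp, whose offset of 50 narrows log2 differences. The count of members called (adjusted p by limma) rose from 0 to 1, Capn2, after normexp and with trended robust eBayes. It was 0 with any array left out. Because Capn2 picked the family by this contrast, nothing is read from that call. All genes called numbered 26 after normexp, 20 with trended robust eBayes, 0 with slide as a block, 0 without Prep1f/+ replicates 1 and 4, and 0 to 5 with 1 array left out. The member median was 0.046 with the mean over probes, 0.048 with every probe as its own row, 0.057 without Prep1f/+ replicates 1 and 4, and 0.096 to 0.15 with 1 array left out. Capn1, Capn2, Capn5, Capn10 and Capns1 kept their sign in all 19 alternative values each, Capn3 in 18 of 20, Capn6 in 18 of 19, Cast in 21 of 22 and Capn7 in 11 of 19. These counts include settings that cannot change the difference of a gene with a single kept probe. For Capn1, Capn2, Capn5, Capn6, Capn10 and Capns1 these are the other filters, the other probe rules, the slide block and trended robust eBayes. The other filters, the slide block and trended robust eBayes also left the differences of Capn3, Capn7 and Cast unchanged, so their counts include such settings too. The settings for the second Capn3 probe were chosen after the data were seen. How much of the normexp shifts comes from the offset, and the cause of the other shifts, was not tested. The labels carry no replicate numbers that could pair mice. The slide, which holds 1 array of each genotype, was the one pairing available. As a block it cannot change a mean difference in this layout, so the Capn2 difference of 0.57 was fixed there by the design. Only the SE and the p could change, and no member was called.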
